A study of Mus musculus with 24 samples.

Results

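The mature 3p arms of the mouse microRNAs (miRNAs) numbered miR-6896 to miR-7093 were examined in liver RNA. They were chosen by name alone, as every miRNA on the array with a number in that range and the ending 3p, which gave 198 of the 1881 miRNAs on the array. No measured value entered the choice. The 200 5p arms of the same number range served as the nearest comparison.

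RNA came from the livers of 3 male mice, and each liver gave 8 arrays, 1 in each of 8 groups, 24 arrays in all. In 4 groups the RNA included small RNAs, and the tissue was preserved at once (0 h) or after 96 h at room temperature, each with and without a DNase digestion during isolation. In the other 4 groups the RNA came from 0 h tissue, was isolated with DNase by a column kit that loses most small RNAs (depleted RNA), and was measured as it was or after incubation of 3 µg for 30 min at 37 °C with RNase at 0 U, 0.026 U or 0.67 U. The incubated RNA was then isolated again, together with any small fragments. Mouse strain and age were not given for these 3 animals in the sources used here, and depleted RNA was described as still holding some small RNAs. Each mouse had its own slide and its own scan, and effects of mouse, slide and scan cannot be told apart.

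The RNA integrity number (RIN), which runs from 1 for fully degraded to 10 for intact RNA, was 8.8 to 9.0 on the 6 arrays at 0 h with small RNAs and 2.3 to 2.5 on the 6 arrays at 96 h. In depleted RNA it was 9.0 to 9.4 without RNase, 6.0 to 7.0 at 0.026 U and 2.4 to 2.9 at 0.67 U. The summed signal of all detected miRNAs was 55237 to 163493 intensity units at 0 h, 187378 to 362324 at 96 h, 7125 to 10043 in depleted RNA without RNase and 36325 to 177642 with RNase. For mouse 9 the labels disagree on which array had the higher RNase dose, and the doses used here follow the descriptions and the RIN. The hepatocyte miRNAs miR-122-5p and miR-192-5p were detected on all 24 arrays, while the neuronal miR-124-3p and miR-9-5p and the muscle miR-1a-3p were detected on none. With storage the 7 marker miRNAs of hepatocytes, red cells, endothelium and white cells fell by 2.56 to 5.42 with DNase, and the muscle miR-133a-3p rose by 1.21 (glog2, all called), and their part in the changes of the 3p arms was not tested. In bulk tissue fewer cells of a type and less RNA per cell cannot be told apart.

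A miRNA hairpin holds a 5p arm and a 3p arm, and the cell usually loads one of them into an Argonaute protein, where its seed, bases 2 to 8, pairs with target messenger RNAs. Most hairpins are cut from a primary transcript by Drosha and then by Dicer. Mirtrons bypass Drosha: a very short intron is spliced out, its lariat is opened, and the intron itself folds into the hairpin. The 3p arm of such a hairpin ends at the 3′ splice site of the intron, which carries the bases AG after a pyrimidine-rich stretch.

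Of the 198 members, 174 had a mature sequence in RefSeq on build GRCm38.p6, and 24 had none there. The sequences were 18 to 25 bases long, with a median of 22. A total of 136 of the 174, or 78.2%, ended in AG, against 15.9% of the 1608 miRNAs of the whole array that had a sequence. Where the hairpin was known (169 members), the 3p arm ran to the last base of the hairpin in 126. The median share of pyrimidines was 71.7% in the 3p arms, 31.8% in the 5p arms and 50% over the whole array, and the median share of G was 14.3% in the 3p arms and 43.8% in the 5p arms. All 174 lay within the span of a protein-coding gene. The strand of that gene was known for 151 of them and was the strand of the miRNA in all 151. The table used gives gene spans only, so exon and intron were not told apart.

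The following sequences, written 5′ to 3′ with the seed in capitals, belong to the members on which the results turn. The first group rose after storage, and the second was higher at 96 h when DNase was omitted. The third holds miR-7033-3p and miR-7034-3p, for which mouse 10 lay below the other mice at 96 h with DNase, and miR-7036b-3p. Each of the third group was called higher after storage with DNase. miR-7033-3p and miR-7036b-3p were also called higher with RNase, the latter without being detected there. The fourth group was detected on every array. No member of these lists shares its seed with another.
miR-6937-3p: uCACAGGUucccccuugcacuag
miR-7028-3p: cCUUCUCUucccccucggccag
miR-7045-3p: uCUCCCCCcucccccgcacag
miR-7046-3p: uGAACCACccaucccccuacag
miR-7047-3p: uCACCCUCacccuuccuccuucc
miR-7082-3p: gCCCCCCUugcugucugucucc
miR-7084-3p: gCCUCUGAccccuguccucugc
miR-7066-3p: uCUACCCAuugccugccucccag
miR-7033-3p: uGCCUCCAuucucuugggcag
miR-7034-3p: uUGGCCUUccuucccuacccuaca
miR-7036b-3p: uUCCUGGUgggccucggggucc
miR-7022-3p: aCAAGCCUgaccucugccccca
miR-6943-3p: cUGCUUCCauaccccuacccag
miR-6976-3p: aUCUCCCUcccaacuccccag

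These sequences show how the members vary. miR-7047-3p had 91.3% pyrimidines, the highest share of the 174, and contained no G. miR-7036b-3p, with 40.9% G, had the highest share of G among the tested members. Seeds were shared by few members: CACCCUG by miR-7018-3p, miR-7023-3p and miR-7068-3p, and 5 other seeds by 2 members each. Of these 13 members only 1 was measured on enough arrays to be tested, so no seed family could be followed through the experiment.

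**Figure D1:**
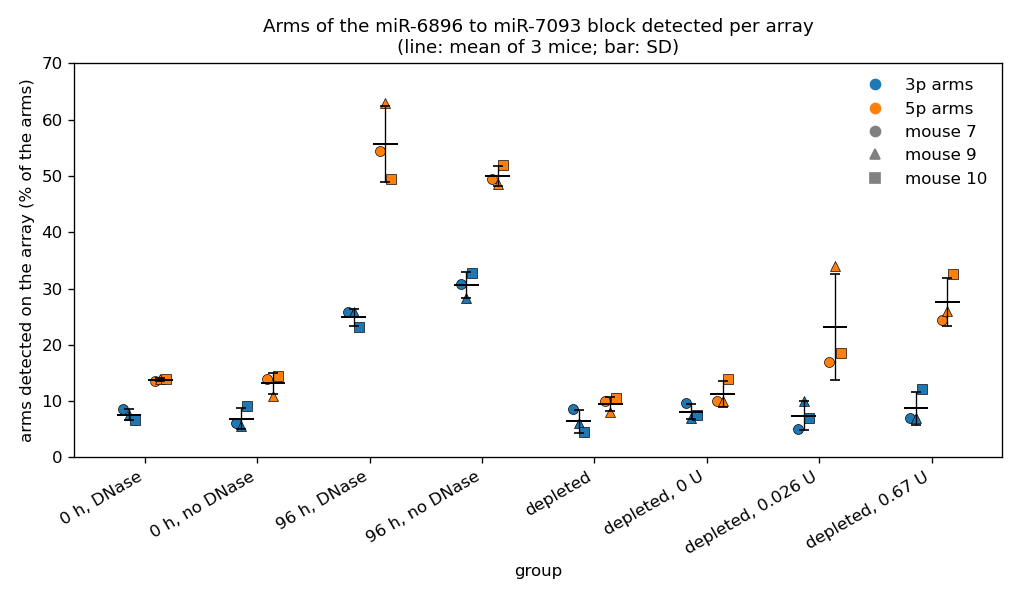
Share of the 3p arms (blue, of 198) and of the 5p arms (orange, of 200) detected on each of the 24 arrays, in percent, by group. Symbols are mice, lines are means of 3 mice and bars are SD. Both arms were detected most often at 96 h, where the 3p arms reached 23.2% to 32.8%, and with RNase the share was 17% to 34% in the 5p arms and 5.05% and 12.1% in the 3p arms.

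More 3p arms had a measurable signal after storage. A miRNA counts as detected when the scanner software called its signal above background. At 0 h with DNase 17, 15 and 13 members were detected in mice 7, 9 and 10, and at 96 h 51, 51 and 46. Without DNase the numbers were 12, 11 and 18 at 0 h and 61, 56 and 65 at 96 h. The 0 h and 96 h arrays did not overlap. The rise was 34.3 ± 1.53 members (SD of the 3 mice) with DNase and 47 ± 2 without. It was not limited to the members: over all miRNAs of the array the mean share detected went from 15.9% to 34.2% with DNase and from 16% to 33.1% without, beside 7.58% to 24.9% and 6.9% to 30.6% for the 3p arms.

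Numbers in depleted RNA, with and without RNase, were close to those at 0 h by the scanner's own calls. With 1 fixed detection level for all arrays the difference between depleted RNA and 0 h changed from -2.33 to 23.7 members, so its direction depends on how detection is defined. There were 17, 12 and 9 members detected in depleted RNA, 19, 14 and 15 after incubation at 0 U, 10, 20 and 14 at 0.026 U, and 14, 14 and 24 at 0.67 U. The mean at both doses differed from that at 0 U by 0 ± 6.08 members. The 5p arms went from 20, 20 and 28 at 0 U to 34, 68 and 37 at 0.026 U and to 49, 52 and 65 at 0.67 U, so that every array with RNase held more 5p arms than every array at 0 U. The 2 arrays with the most 3p arms, that of mouse 9 at 0.026 U and that of mouse 10 at 0.67 U, were also the brightest of the 6 RNase arrays over all miRNAs (177642 and 168514 units, against 36325 to 83451 on the other 4). The part of array brightness in these counts was not tested.

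Over the whole experiment 71 members were detected on at least 1 array and 127 (64.1%) on none, against 53.3% of all miRNAs on none. A total of 44 members were detected only on 96 h arrays, 18 of them on all 6 of these. The same count over all miRNAs is not given, and the mean share of all miRNAs detected also rose at 96 h, from 15.9% to 34.2% with DNase. Detection at 96 h only is therefore not read as a trait of the members. A further 6 members were detected on all 24 arrays: miR-6943-3p, miR-6976-3p, miR-7022-3p, miR-7047-3p, miR-7080-3p and miR-7085-3p. The summed signal of the detected members was 37.9 to 73.7 units at 0 h and 528 to 951 units at 96 h, which was 0.0286% to 0.133% and 0.218% to 0.451% of the signal of all detected miRNAs.

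Testing was limited to miRNAs with a detection call on 5 or more of the 24 arrays, which kept 46 of the 198 members (23.2%), 96 of the 200 5p arms (48%) and 631 of all 1881 miRNAs (33.5%). Of the 46, 22 were detected on 96 h arrays only, so they passed through the condition in which they were high, and the counts after storage describe them rather than support a direction. The 4 members detected on just 5 arrays were miR-6904-3p, miR-7070-3p, miR-7072-3p and miR-7082-3p. The 6 detected on 4 arrays, left out, were miR-6921-3p, miR-6929-3p, miR-6944-3p, miR-6963-3p, miR-7024-3p and miR-7050-3p. Changes are given on the glog2 scale, a generalized log2 after variance stabilizing normalization of the arrays, and a miRNA was called at a change of at least 1 (2-fold) and a limma adjusted p under 0.05.

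**Figure D2:**
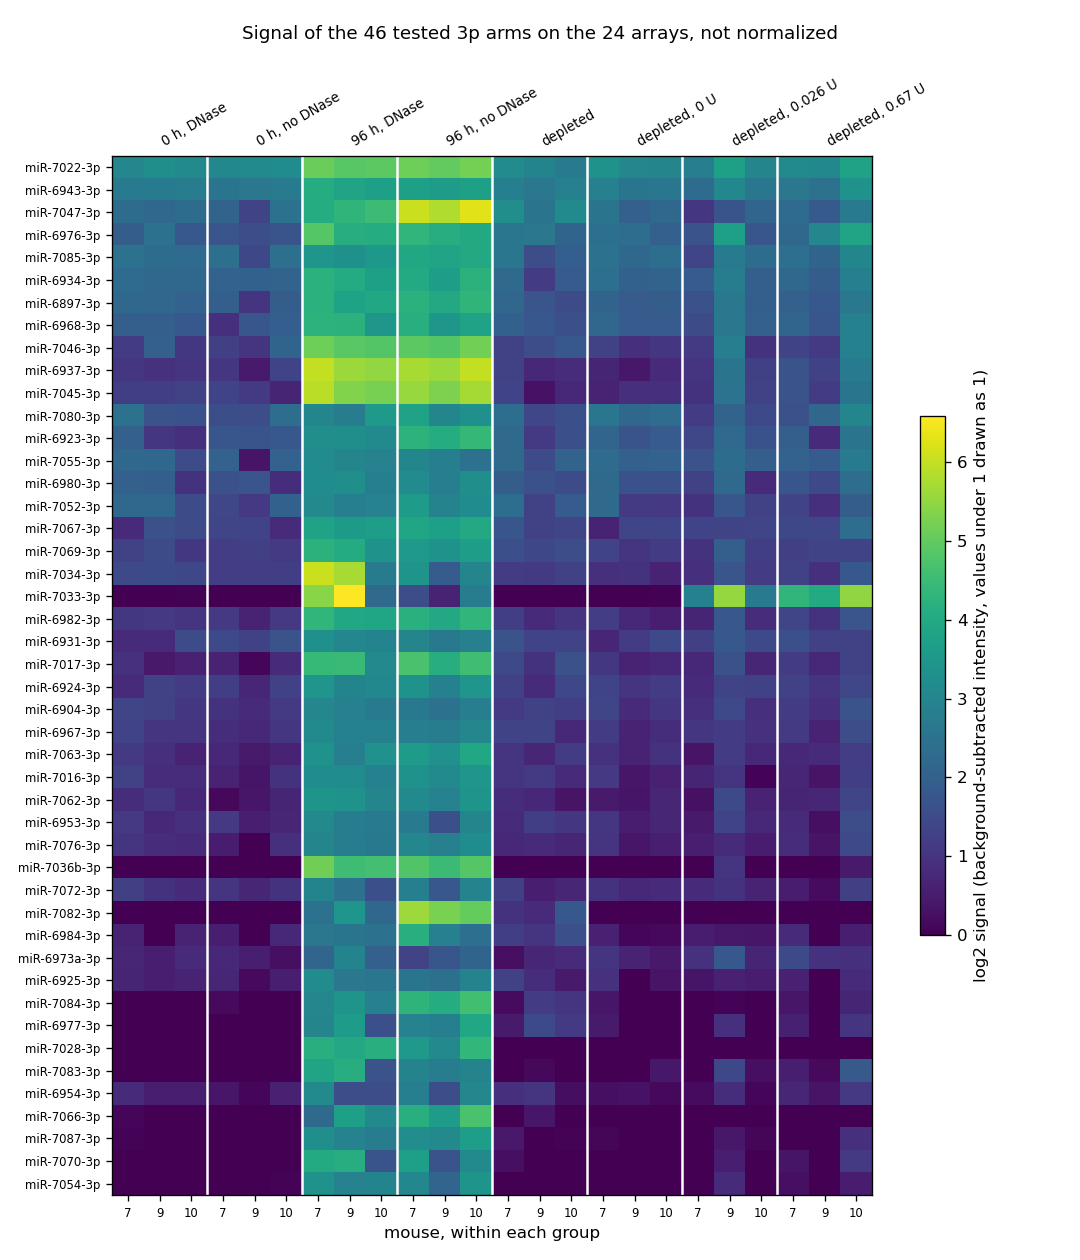
Signal of each of the 46 tested 3p arms (rows, by falling mean) on each of the 24 arrays (columns, 3 mice per group), as log2 of the background-subtracted intensity without normalization between arrays. The 6 arrays at 96 h stand out in nearly all rows, while miR-7033-3p is bright with RNase and in 2 of 3 mice at 96 h with DNase.

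Storage with DNase was followed by higher levels of 13 members and lower levels of none. Over all 631 tested miRNAs 60.4% were called higher and 21.6% lower. Without DNase 14 members were higher and none lower, against 60.5% and 23% over all tested miRNAs. A total of 10 members were called higher in both comparisons. These were miR-6937-3p, miR-7017-3p, miR-7028-3p, miR-7036b-3p, miR-7045-3p, miR-7046-3p, miR-7066-3p, miR-7070-3p, miR-7082-3p and miR-7084-3p. Called with DNase but not without were miR-7033-3p, miR-7034-3p and miR-7083-3p, and called without DNase but not with it were miR-6977-3p, miR-6982-3p, miR-7047-3p and miR-7087-3p. A difference between the 2 storage changes was called for miR-7047-3p alone among the 46. The median change of the 46 members was 0.11 with DNase and 0.59 without, beside 2.47 and 2.16 over all tested miRNAs.

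The unnormalized signals of these members all moved up, and how far they moved relative to the array depended on the scaling. With no normalization between arrays 45 of the 46 members were called higher and none lower after storage, with and without DNase alike. With each array set to the 75th percentile of all miRNAs 3 members were higher and 18 lower with DNase, and 4 and 14 without. Quantile normalization gave 4 and 21 with DNase and 6 and 15 without, and normalization on the tested miRNAs alone gave 1 and 34, and 3 and 30. Setting each array to the 75th percentile of the miRNAs detected on all arrays gave 5 and 7 with DNase and 12 and 1 without. A direction for the members as a group is therefore not given. The counts under these scalings stand without the share of all tested miRNAs under the same scaling, so they are not read as a trait of the members. Under all 16 settings their median change lay below that of all tested miRNAs, by 0.21 to 2.62 with DNase and by 0.17 to 1.73 without. Not all of these settings are separate checks. The fit with the mouse as a block, the fit of the compared groups alone and the rank test use the same normalized values. They could not move this median.

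**Figure D3:**
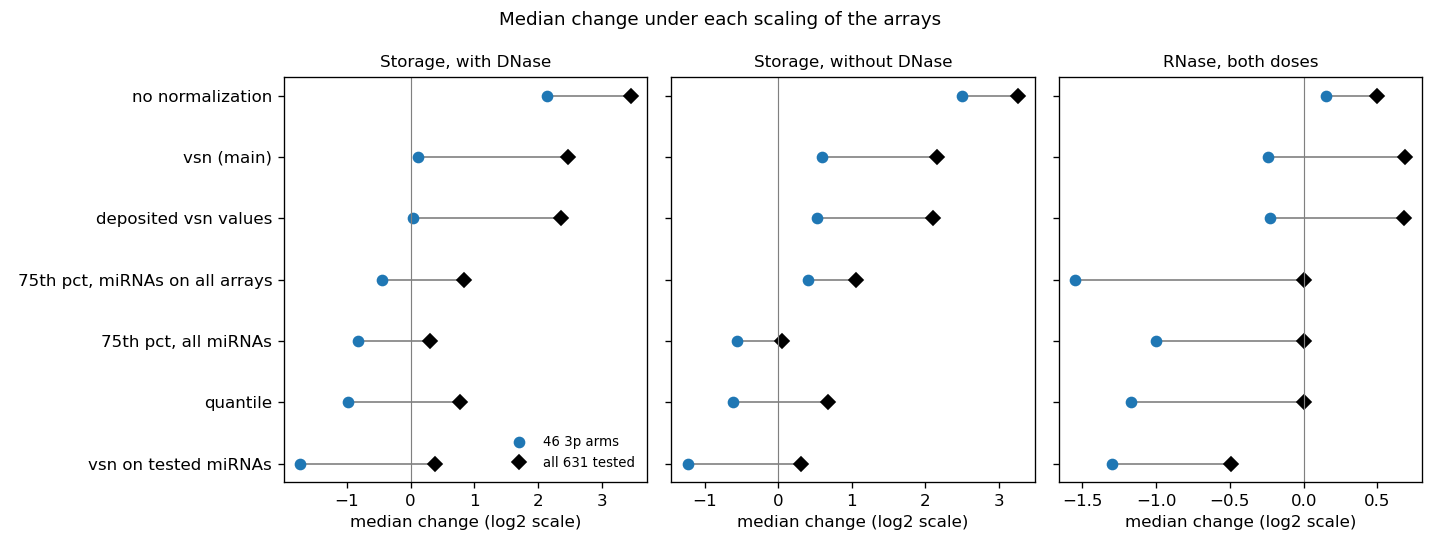
Median change of the 46 tested 3p arms (circles) and of all 631 tested miRNAs (diamonds) under each scaling of the arrays, for storage with DNase, storage without DNase and RNase at both doses, on a log2 scale. The medians of the 3p arms run from -1.73 to 2.15 in the first panel, and the circle lies left of the diamond in every row.

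miR-7036b-3p, from a hairpin within Add1, which encodes the membrane skeleton protein adducin 1, was detected on the 6 arrays at 96 h and on no other. Its signal at 0 h with DNase was -0.577, -0.762 and -0.755 units in mice 7, 9 and 10, which is at background, and at 96 h it was 36, 23.5 and 24.7. Without DNase it went from -0.912, -1.12 and -0.651 to 27.9, 22.4 and 29. All 96 h arrays lay far above all 0 h arrays. Because 0 h was below background only a lower bound of the fold can be given: miR-7036b-3p was at least 5.38-fold higher with DNase and at least 5.31-fold without. Such a bound sets the 96 h mean against the lowest detected signal of each 0 h array, or against the value of the member itself where that was higher. Where the latter holds on each array, as for miR-6937-3p and miR-7045-3p, the bound equals the fitted fold. It moves with the scaling of the arrays. miR-7036b-3p, miR-7028-3p, miR-6937-3p and miR-7045-3p reached the 5 arrays needed for testing only through their 96 h arrays, so no p-value after storage is given for them.

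miR-7028-3p behaved likewise. It comes from a hairpin in Tchp, which encodes the keratin-binding protein trichoplein. Its signal at 0 h with DNase was 0.107, 0.2 and -0.254 units and at 96 h 17.5, 15.7 and 17.4, at least 3.39-fold higher. Without DNase the 96 h values were 11.6, 8.55 and 20.6, at least 2.71-fold higher. It was detected on none of the 12 arrays of depleted RNA.

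miR-6937-3p and miR-7045-3p were among the brighter members at 96 h. miR-6937-3p lies in Adi1, which encodes an enzyme of the methionine salvage pathway, and rose from 2.06, 1.91 and 2 units to 63, 48.8 and 46.2 with DNase, at least 5.67-fold. Without DNase its 96 h values were 53.2, 48.8 and 63.6, at least 6.43-fold higher. It was not detected on any of the 6 arrays at 0 h. miR-7045-3p lies in Chd4, which encodes a chromatin remodeller of the NuRD complex. It rose from 2.34, 2.35 and 2.4 units to 60.1, 40.3 and 38 with DNase, at least 4.33-fold, and was not detected on the 3 arrays at 0 h. The 0 h and 96 h values of both members were widely separated in each mouse.

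miR-7046-3p, in Rabac1, which encodes a Rab-binding protein of the Golgi, was detected at 0 h as well, so its change is a measured one. It went from 2.27, 4.09 and 2.08 units to 35.1, 30 and 28.3 with DNase (change 1.42, SE 0.30, limma adjusted p = 0.000169), in 3 of 3 mice. Under the scalings above the sizes of such changes moved with the array median.

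Of the 6 members detected on all arrays, miR-7047-3p was called after storage without DNase and is described below, and the other 5 were called in neither storage comparison. miR-7022-3p, in the F-box gene Fbxo6, measured 8.35, 9.72 and 8.94 units at 0 h with DNase and 34.5, 29.3 and 30.3 at 96 h, so its raw signal rose in each mouse. On the normalized scale this was a change of -0.07 (SE 0.20), less than the spread between mice. miR-6943-3p, in the receptor kinase gene Grk6, went from 6.54, 6.61 and 6.89 units to 16.9, 14.5 and 13.3, and miR-6976-3p, in Srf, which encodes serum response factor, from 3.87, 5.6 and 3.55 to 29.1, 17.3 and 16.9. Their normalized changes were -0.68 (SE 0.19) and 0.31 (SE 0.34), and neither reached the change of 1 needed for a call. The normalized mean of miR-6943-3p went from 3.28 (SD 0.04) to 2.60 (SD 0.28), a fall of less than 2-fold.

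The 3p arms had smaller changes than the 5p arms of the same hairpins. There were 198 hairpins with both arms on the array. Both arms were tested in 25 of them, the 5p arm alone in 70, the 3p arm alone in 21 and neither in 82. In all 25 hairpins with both arms tested the change after storage was larger in the 5p arm, with and without DNase. The median change with DNase was 0.09 for the 3p arms and 5.38 for the 5p arms of these hairpins, and without DNase 0.40 and 4.79. With RNase the 5p arm had the larger change in 24 of the 25, with medians of -0.27 and 2.93. The exception was the miR-7033 hairpin, with 3.58 for the 3p arm and 1.23 for the 5p arm. On average 27.7 of the 5p arms were detected at 0 h with DNase and 111 at 96 h. An arm could therefore be tested because it was high at 96 h. Hairpins are also not replicates, and for both reasons these counts and medians are a description.

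**Figure D4:**
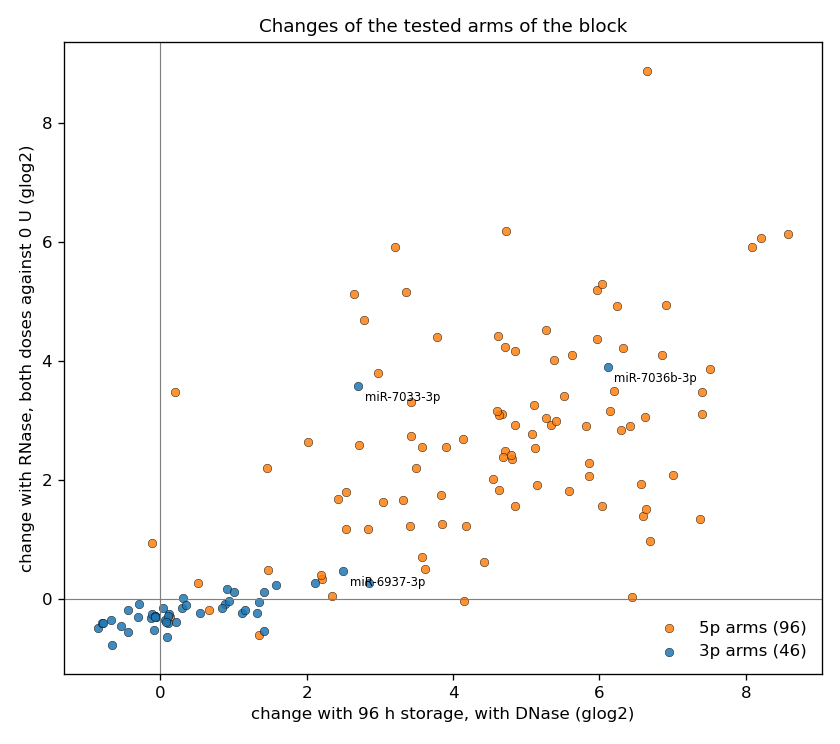
Change with 96 h storage (horizontal, with DNase) against change with RNase (vertical, both doses against 0 U) for the 46 tested 3p arms (blue) and 96 tested 5p arms (orange), each on the glog2 scale. Most 3p arms lie near 0 on both axes and most 5p arms lie above 0 on both, and miR-7033-3p and miR-7036b-3p are the 3p arms among the 5p arms.

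At 96 h, omission of DNase was followed by higher levels of 5 members and lower levels of 2, while 6.18% of all tested miRNAs were higher and 4.6% lower. None of the 96 5p arms was higher and 5 were lower. This comparison asks whether residual DNA adds to the signals. The 5 higher members were miR-7082-3p, miR-7047-3p, miR-7084-3p, miR-7066-3p and miR-6923-3p. The scalings left this split at 5 and 2 with the deposited values and at 2 and 2 with quantile normalization.

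miR-7047-3p, the pyrimidine-rich member without G shown above, was detected on all 24 arrays. At 96 h it measured 16.9, 19.9 and 22.8 units with DNase in mice 7, 9 and 10 and 66.9, 55.7 and 78.2 without. The lowest value without DNase was above the highest with DNase. The change was 1.81 (SE 0.28, limma adjusted p = 0.00022), the same way in 3 of 3 mice. At 0 h there was no such difference, with 5.01, 4.71 and 5.01 units with DNase and 4.31, 2.54 and 5.5 without. In depleted RNA, which was treated with DNase, it stayed between 2.07 and 9.49 units on all 12 arrays.

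The storage change of miR-7047-3p differed with and without DNase. It was 0.09 (SE 0.28) with DNase and 2.16 (SE 0.28) without. The difference of 2.07 (SE 0.40) had a limma adjusted p of 0.0101, and 1.11% of all tested miRNAs differed in this way. It was the only 1 of the 46 members to do so, and 6 had an unadjusted p under 0.05. Without mouse 7 the adjusted p was 0.992, without mouse 9 it was 0.214, and the differences were then 1.93 and 1.75. The 5p arm of the same hairpin, rich in G, had storage changes of 5.27 with DNase and 5.57 without.

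miR-7082-3p showed the largest of these changes. It lies in Raver1, which encodes an RNA-binding partner of PTB, at chr9:21075499-21075520 on the minus strand (GRCm38.p6). It measured 5.6, 11.1 and 4.68 units at 96 h with DNase, detected on 2 of 3 arrays, and 49.2, 38.6 and 32.9 without. The change was 2.47 (SE 0.47) and the groups did not overlap. miR-7082-3p reached the 5 arrays needed for testing only through its 96 h arrays, so no p-value is given for it. At 0 h it was at most 0.472 units on all 6 arrays and never detected.

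miR-7084-3p and miR-7066-3p were also called higher without DNase, with smaller changes. miR-7084-3p, in the transcription elongation factor gene Elof1, measured 8.24, 10.7 and 7.26 units with DNase and 19.6, 17 and 24.3 without (change 1.22, SE 0.31). miR-7066-3p lies in Ncan, which encodes the brain proteoglycan neurocan. It measured 4.89, 13.2 and 8.77 units with DNase and 17.5, 12.2 and 25.8 without (change 1.09, SE 0.34). Its groups overlapped, and the raw signal of mouse 9 was lower without DNase. It was not called in the paired fit with the mouse as a replicate block. miR-7084-3p and miR-7066-3p were detected on 96 h arrays only, so no p-value is given for them. miR-6923-3p, which has no sequence in the table used, measured 9.54, 9.67 and 8.93 units with DNase and 19.2, 17 and 20.8 without (change 1.04, SE 0.28, limma adjusted p = 0.0175). It is named because it was called, after its values were seen.

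Of the 4 with a sequence, 1 ended in AG, while 29 of the 41 tested members with a sequence did. Their shares of pyrimidines ran from 73.9% to 91.3%, beside a median of 72.7% in the tested members. Without mouse 7 none of the 7 members kept its call, and without mouse 9 only miR-7047-3p and miR-7082-3p did. With the 2 groups compared fitted alone these 2 and miR-7084-3p were called.

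**Figure D5:**
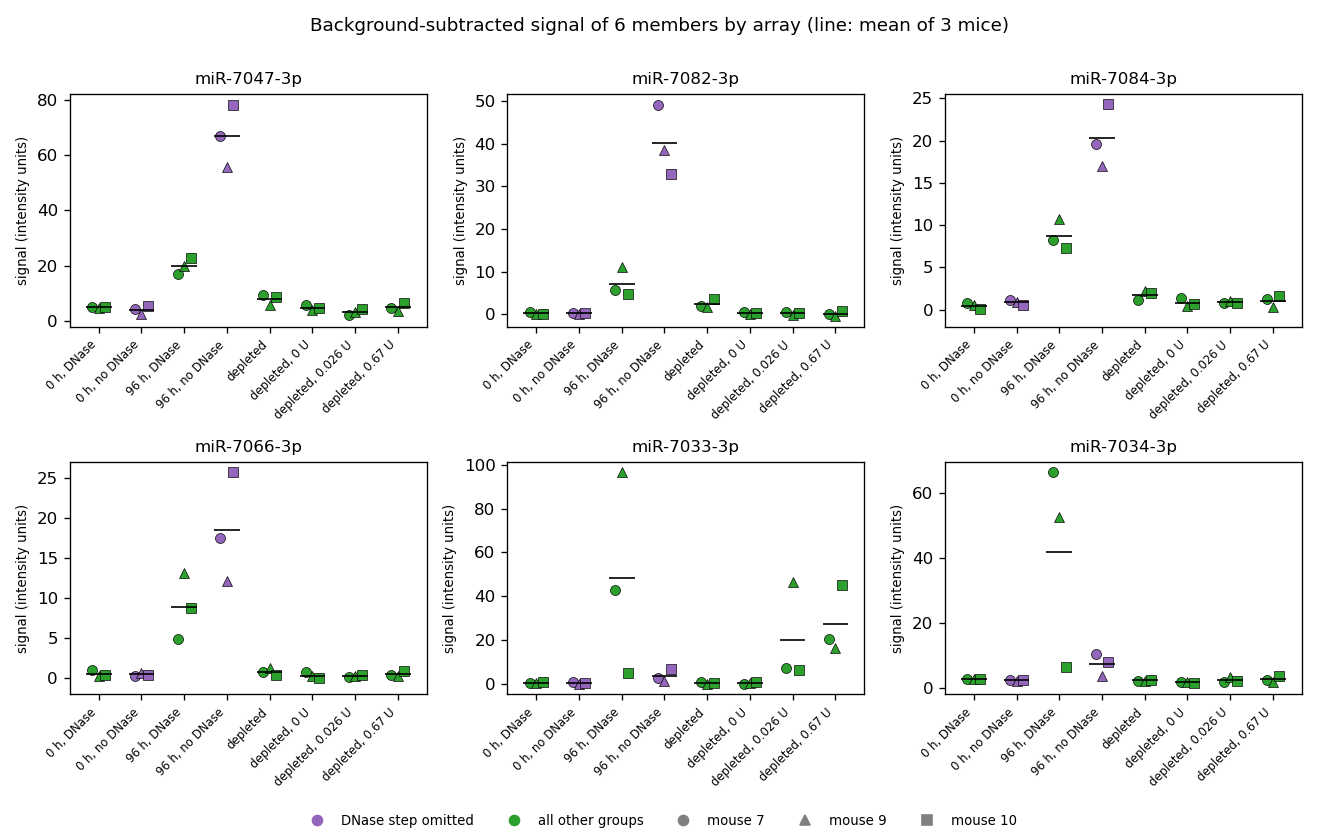
Background-subtracted signal of 6 members on each of the 24 arrays, in intensity units on linear axes, by group. Symbols are mice and lines are means of 3 mice. miR-7047-3p, miR-7082-3p and miR-7084-3p are highest at 96 h without DNase in every mouse, and miR-7033-3p and miR-7034-3p are high at 96 h with DNase in mice 7 and 9 but not in mouse 10.

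The 2 members that were lower without DNase were set by 2 of the 3 animals. miR-7033-3p, in the nucleoporin gene Pom121, measured 43, 96.5 and 4.83 units at 96 h with DNase in mice 7, 9 and 10 and 2.93, 1.58 and 6.99 without. Its change was -2.54 (SE 0.62, limma adjusted p = 0.01), made up of -3.17, -4.44 and -0.02 in the 3 mice. miR-7034-3p, in Tmem120a, measured 66.4, 52.6 and 6.56 units with DNase and 10.6, 3.8 and 7.99 without (change -1.76, SE 0.43, limma adjusted p = 0.00927), with mouse changes of -2.28, -2.78 and -0.21. The groups of both members overlapped through mouse 10.

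The array of mouse 10 at 96 h with DNase was low in more than these. For 4 members (miR-7033-3p, miR-7034-3p, miR-7070-3p and miR-7083-3p) it lay over 1 glog2 unit below both other mice of its group, and for none that far above. For mice 7 and 9 no member did either. The storage counts with DNase were 11 or 17 members with 1 mouse left out, and 4 members became lower without mouse 10. The RIN of the 3 arrays was 2.3, 2.4 and 2.3, and the part of this array in the calls beyond these counts was not tested.

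Omission of DNase at 0 h changed no member. In limma none of the 46 was called, none had an unadjusted p under 0.05, and the share called over all tested miRNAs was 0%. The rank test cannot decide this, since with 3 arrays against 3 its smallest p is 0.1.

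RNase at both doses against 0 U gave 2 higher members and no lower one, while 44.7% of all tested miRNAs were higher and 0% lower. Of the 96 5p arms 77 were higher. The median change of the members was -0.24, beside 0.69 over all tested miRNAs. Scaling decided this split as well. Quantile normalization gave 1 higher and 28 lower members, and the 75th percentile of all miRNAs 1 and 23. That of the miRNAs detected on all arrays gave 1 and 36, and normalization on the tested miRNAs alone 2 and 39. These counts, too, stand without the share of all tested miRNAs under the same scaling and are not read as a trait of the members. The members' median lay below that of all tested miRNAs under all 17 settings, by 0.15 to 1.55. The settings that share the normalized values, here also the doses of mouse 9 by title, could not move it.

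miR-7033-3p was the 1 member with a measurable rise. It was at 0.0822, 0.297 and 1.02 units at 0 U in mice 7, 9 and 10, where it was not detected. It measured 7.39, 46.5 and 6.58 units at 0.026 U and 20.4, 16.2 and 45 at 0.67 U, detected on all 6 arrays. All RNase arrays lay above all arrays at 0 U. It was at least 9.17-fold higher. It reached the 5 arrays needed for testing only through its RNase arrays, so no p-value with RNase is given for it. By the titles of the samples the 2 values of mouse 9 would change places. At 0 h with small RNAs it was at most 1.03 units on all 6 arrays.

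The other called member, miR-7036b-3p, was not measured in this comparison. It was detected on none of the 9 arrays, with -1.19, -1.11 and -0.679 units at 0 U and -0.756 to 1.99 with RNase, and no fold is given. miR-6937-3p and miR-7045-3p, high after storage, measured 2.04 to 6.58 and 1.95 to 5.94 units on the 6 RNase arrays, beside 1.34 to 1.71 and 1.56 to 1.88 at 0 U, and neither was called.

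No difference between the higher and the lower dose was called. With 3 arrays per group, and with doses of mouse 9 that the labels dispute, equal effects of the doses cannot be concluded. In limma none of the 46 members was called at 0.67 U against 0.026 U, none had an unadjusted p under 0.05, and 0% of all tested miRNAs were called.

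The change after storage was set against that with RNase to see whether the 2 kinds of degradation act alike on the members. It was larger after storage for 10 members and smaller for none, against 36.5% and 22.3% of all tested miRNAs. All of these 10 except miR-7034-3p and miR-7046-3p reached the number of arrays needed for testing only through their arrays after storage. The count therefore describes these members and does not support a direction. Among the members called, the 4 with the largest fitted differences were miR-7028-3p, miR-6937-3p, miR-7082-3p and miR-7045-3p, each the same way in 3 of 3 mice. miR-7028-3p and miR-7082-3p were detected on none of the 9 arrays at 0 U or with RNase and on none of the 3 at 0 h, and miR-6937-3p and miR-7045-3p on 2 of the 6 RNase arrays each, so no size is given for these differences. That of miR-7082-3p was 0.00 with the 75th percentile of all miRNAs. Storage was measured in RNA with small RNAs and RNase in depleted RNA, so the kind of RNA and the kind of degradation cannot be told apart here. The count was 6 with the 75th percentile of all miRNAs (4 larger, 2 smaller) and 43 with no normalization.

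Depletion of small RNAs at 0 h gave 3 higher members and no lower one, while 5.39% of all tested miRNAs were higher and 24.4% lower. The 3, named after their values were seen, were miR-6977-3p, miR-7082-3p and miR-7084-3p. None was detected on any of the 6 arrays compared, so no fold is given. miR-7082-3p measured 1.95, 1.72 and 3.49 units in depleted RNA and at most 0.472 at 0 h. The count was 12 with quantile normalization and 43 with the 75th percentile of the miRNAs detected on all arrays, all higher. The marker miRNAs of hepatocytes, red cells, endothelium and white cells changed by -1.79 (miR-122-5p) to -5.59 (miR-451a) in the same comparison. No member was called lower. Among the 198 members, only 13 to 17 in each mouse had a signal above background in 0 h tissue isolated with DNase. The rest lacked a detection call there, so a fall could not be measured for them. Whether the members resist depletion was not tested. Incubation at 0 U, which stands for the handling alone, changed no member in limma at the threshold used, with 5 at an unadjusted p under 0.05. Of all tested miRNAs 1.74% were called.

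Earlier named mirtrons offered a comparison outside the number range. miR-702-3p and miR-877-3p, both 3p arms, were detected on all 24 arrays, and miR-702-5p and miR-1224-3p on none. The storage changes of miR-702-3p were 2.83 with DNase and 2.99 without, and those of miR-877-3p were -0.06 (limma adjusted p = 0.765) and 1.54 (3.9e-07). With RNase they were -0.37 and -0.39, neither called. The 5p arm miR-877-5p had changes of 6.80, 8.21 and 3.47 in the same 3 comparisons, each called. Those of the 5p arm miR-1224-5p, detected on all 24 arrays, were 4.25, 2.45 and 3.97, each called.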

How the data were processed

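Scanner output of the 24 arrays was deposited as background-subtracted fluorescence intensity, read by the authors with Agilent Feature Extraction 10.10.1.1, with a flag for detection. The authors also deposited log2 values of all arrays after variance stabilizing normalization (vsn). Signal was the total gene signal where detected, otherwise the sum of the probe signals. The vsn method was rewritten in Python 3.11.15 with numpy 2.4.6, in 7 rounds that kept 90% of the miRNAs. It differed from the deposited values by 0.0956 (SD).

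The 8 group means were fitted with limma 3.58.1 in R 4.3.3 (trend, no mouse term) over 631 miRNAs, with two-sided Benjamini-Hochberg adjusted p. In simulated storage data the fit returned 66% of 100 miRNAs changed by 1.5 (log2) and 93% of 100 changed by 3. The methods' rank test of 3 against 3 cannot go below 0.1 unadjusted. The mouse number in the labels pairs the arrays of an animal: deviations from the group means correlated by 0.0914 on average within a mouse and by -0.0449 between mice. The number of arrays limits the precision. For mouse 9, doses followed the descriptions.

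Members and lists were chosen with earlier results of these data known. Members named were, per main comparison, the 4 largest changes each way among those called, alike in 3 mice and detected on every array of a group, the 8 of highest mean signal, and up to 4 called in each other comparison. Alternatives covered scaling, filters, background correction, the mouse as a replicate block, the groups fitted and leaving out each mouse. The gene around 1 member is not reported here.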

Additional observations from a re-analysis of the deposited data

Results flagged for a closer look

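The storage change of miR-7047-3p differed between the 2 ways of isolating the RNA. The change without DNase minus the change with DNase was 2.07 (SE 0.40, limma adjusted p = 0.0101, an interaction term), positive in 3 of 3 mice, with 2.30, 2.71 and 1.18 in mice 7, 9 and 10. It was called under every scaling tried except normexp background correction, and lost its call without mouse 7 or without mouse 9. Groups of 3 arrays are too small for a test of single outlying samples, so none was made.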

How the results depend on the processing

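The 19 changes followed for the named members kept their direction in 284 of 285 recalculations, and 218 also kept their call. Many of these could not change a direction. The other filters, the replicate block, the groups compared alone, the rank test and the doses of mouse 9 by title use the same normalized values. They give the same change and can only alter a call. The exception was the storage against RNase difference of miR-7082-3p, 0.00 with the 75th percentile of all miRNAs. With the 75th percentile of all miRNAs the members called were 21 for storage with DNase, 4 for incubation at 0 U, 24 for RNase, 2 for the difference of the storage changes by DNase and 6 for storage against RNase. With that of the miRNAs detected on all arrays they were 43 for depletion, 2 for 0 U, 37 for RNase, 2 for the storage changes by DNase and 17 for storage against RNase. Quantile normalization gave 25 for storage with DNase, 4 for DNase at 96 h, 12, 1, 29, 2 and 5 for depletion, 0 U, RNase, storage by DNase and storage against RNase. The vsn on tested miRNAs gave 35 and 33 for storage with and without DNase, 6 for depletion, 41 for RNase and 2 for storage by DNase. No normalization gave 45 for both storage comparisons, 1 for depletion, 1 for 0 U, 2 for storage by DNase and 43 for storage against RNase. Without a filter the counts were 80 and 67 for storage with and without DNase (21 and 25 of them higher), 17 for DNase at 96 h, 15 for depletion, 1 for 0 U, 4 for RNase, 3 for storage by DNase and 27 for storage against RNase. Detection on all 3 arrays of a group gave 6 for depletion and 2 for storage by DNase. Only the groups compared gave 3 for DNase at 96 h and 2 for storage by DNase. Normexp, which adds 50 to signals that are mostly smaller, called 0 in every comparison. So did the rank test in the 8 comparisons for which it was run, but with 3 arrays against 3 it could call none. Leaving out 1 mouse gave 0 to 7 for DNase at 96 h, 1 to 3 for depletion and 0 to 3 for storage by DNase. The replicate block gave 6 in place of 7 for DNase at 96 h (miR-7066-3p was lost) and moved no other count. A fixed detection level of all arrays changed the rise in detected members with storage and DNase from 34.3 to 36.7, and the difference with depletion from -2.33 to 23.7. The counts of members in this section stand without the share of all tested miRNAs under the same setting, so they describe the processing only. The members are dim, and signals near background limit what can be read from them.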
